A study of Mus musculus with 22 samples.

Results

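Expression of 9 neuronal differentiation genes was followed across wild-type and Hox-/- mouse embryonic stem (mES) cells and the cultures made from them. The genes were Neurog1, Neurog2, Neurod1, Neurod4, Tubb3, Elavl3, Elavl4, Dcx and Stmn2. They were taken by gene symbol, each symbol matched a single row, and they are 9 of the 55055 genes that all 4 deposited count tables share. The Hox-/- cells are described by the study as lacking all Hox function. Hox genes encode the transcription factors that give cells along the body axis their position.

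The 22 RNA-seq libraries form 10 groups. Wild-type and Hox-/- mES cells (2 libraries each) were kept in serum medium with 100 ng/ml LIF, 3 µM CHIR99021 (an inhibitor of GSK-3) and 1 µM of the MEK1/2 inhibitor PD0325901. Wild-type and Hox-/- endoderm differentiation cultures (3 libraries each) were grown in a plate, received 100 ng/ml Activin A with 3 µM CHIR99021 at 24 h and again at 72 h, and were collected at 120 h. Gastruloids are aggregates of stem cells that model part of the early embryo. They were gastruloids of wild-type cells that the labels name Chiron and Activin A gastruloids of wild-type and of Hox-/- cells, each at 96 h and at 120 h, with 2 libraries per group. The gastruloid doses, and whether either genotype is 1 clone or several, are not given in the sources used here. The labels call the differentiated samples mixed cells and do not say whether the libraries of a group came from separate cultures, so p-values measure the spread between these libraries, which may be technical. In bulk RNA, fewer cells of a type and less RNA per cell cannot be told apart.

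Library totals ran from 9.11 to 28.8 M counts, so that 3 counts, the floor used below, correspond to 0.104 to 0.329 CPM (each count scaled by the total of its library). The summed level of 39 Hox genes was 30.4 and 35.7 CPM in the wild-type mES libraries and 0.448 and 1.34 CPM in the Hox-/- ones. It was 829 to 877 CPM against 22.5 to 28.6 CPM in endoderm cultures, 625 to 661 against 102 to 104 CPM in Activin A gastruloids at 96 h, and 1167 to 1190 against 63.8 to 69.5 CPM at 120 h, wild type first. The mES markers Pou5f1, Nanog, Zfp42, Esrrb and Klf4 summed to 3794 to 4090 CPM in the mES libraries. Endoderm markers (Sox17, Foxa2, Foxa1, Cxcr4, Gata6, Gata4) were all above the floor in the endoderm cultures of both genotypes.

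Neurogenin 1 and 2 (Neurog1, Neurog2) are proneural basic helix-loop-helix factors, which commit dividing progenitors to the neuronal fate and switch on Notch ligands. Neurod1 and Neurod4 are related factors that act downstream, in maturing neurons. Tubb3 (class III beta-tubulin) and Dcx (doublecortin) build and bind neuronal microtubules, Stmn2 (stathmin 2) destabilises them in growth cones, and Elavl3 and Elavl4 (HuC and HuD) are neuronal RNA-binding proteins. Proneural factors bind short sites called E-boxes, with the letters CANNTG, while GGGCGG is the GC box bound by Sp1-type factors. Several of these genes are also known outside neurons, for example Neurod1 in endocrine cells.

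The genes lie at dispersed sites of the mm10 build: Tubb3 at chr8:123411424-123422015, Neurog2 at chr3:127633135-127635631, Elavl3 at chr9:22015005-22052023, Elavl4 at chr4:110203722-110351909, Dcx at chrX:143855842-143933311 and Stmn2 at chr3:8509360-8561606. Neurog1 lies at chr13:56250478-56252163, Neurod1 at chr2:79452521-79456751 and Neurod4 at chr10:130268152-130280240. Exons of Neurod1 share 201 bases with Cerkl on the same strand, and whether the counting divided such reads is not given in the sources used here, so Neurod1 values are uncertain to that extent.

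The sequence just upstream of 4 of these genes is printed. Tubb3 had the largest called difference among the 9 between genotypes in the endoderm cultures, and Neurog2, Elavl3 and Dcx are those with a RefSeq window that rose in Hox-/- gastruloids at 96 h. Each runs 5′ to 3′ on the strand of its gene, comes from the RefSeq promoter windows of GRCm38.p6, ends where the first annotated exon begins, and has E-boxes (CANNTG) and GC boxes (GGGCGG on either strand) in capitals. The stretches are chr8:123411303-123411423 (plus strand), chr3:127632886-127633134 (plus strand), chr9:22052024-22052273 (minus strand) and chrX:143933312-143933469 (minus strand).
Tubb3: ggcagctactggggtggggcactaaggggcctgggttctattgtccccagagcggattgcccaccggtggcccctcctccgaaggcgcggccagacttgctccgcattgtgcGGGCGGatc
Neurog2: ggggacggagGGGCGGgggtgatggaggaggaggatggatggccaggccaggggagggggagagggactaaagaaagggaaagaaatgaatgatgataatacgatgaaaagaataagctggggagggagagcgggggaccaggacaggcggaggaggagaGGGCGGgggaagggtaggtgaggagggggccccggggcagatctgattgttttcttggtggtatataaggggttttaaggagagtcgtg
Elavl3: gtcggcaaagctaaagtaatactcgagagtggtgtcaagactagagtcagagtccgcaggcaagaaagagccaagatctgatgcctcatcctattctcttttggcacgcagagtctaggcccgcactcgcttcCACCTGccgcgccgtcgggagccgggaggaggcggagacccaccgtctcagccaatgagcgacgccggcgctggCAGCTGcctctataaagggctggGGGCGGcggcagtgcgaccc
Dcx: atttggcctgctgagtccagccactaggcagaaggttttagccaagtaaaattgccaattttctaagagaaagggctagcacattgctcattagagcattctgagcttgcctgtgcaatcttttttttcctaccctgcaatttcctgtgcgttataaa
In these stretches the Tubb3 promoter held 1 GC box and no CANNTG, that of Neurog2 held 2 GC boxes and no CANNTG, and that of Elavl3 held 2 CANNTG sites, 1 of them CAGCTG, and 1 GC box. The Dcx stretch held neither motif. RefSeq gave windows of 250 bases before and 50 bases after the start for 8 of the 9 genes. In these 300-base windows, 5 genes had CANNTG and 6 had a GC box in at least 1 of their entries. Across all 32851 promoter windows of the same length, 72.3% held CANNTG, 16.3% held CAGCTG and 35.7% held a GC box. These matches describe letters only.

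Levels differed widely among the 9 genes, and 2 of them held most of the signal. Tubb3 and Stmn2 together took 98.96% of the counts of the 9 genes in wild-type mES cells and 55.12% in Chiron gastruloids at 120 h, the highest and lowest share among the 10 groups. On the length-scaled FPKM measure, Stmn2 had a mean of 101.7 and Tubb3 of 53.1 in wild-type mES cells (n = 2). Both were thus more abundant in undifferentiated cells than in any differentiated group. A mean of 1 FPKM was otherwise reached by Elavl4 alone, in the Chiron gastruloids at 96 h (1.12) and 120 h (1.34).

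The proneural factors were at or near the limit of detection. Neurog1 had at most 3 counts in any of the 22 libraries. Neurod4 had at most 2. Neurog2 had 0 counts in all 10 mES and endoderm libraries, which allows at most 0.0603 to 0.119 CPM per group, and was detected in gastruloids only, among the libraries here. Dcx had 0 counts in all 4 mES libraries, allowing up to 0.107 CPM in wild type against 0.119 CPM in Hox-/-. Neurog1 and Neurod4 did not pass the low-count filter of edgeR in any comparison and have no test here.

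**Figure D1:**
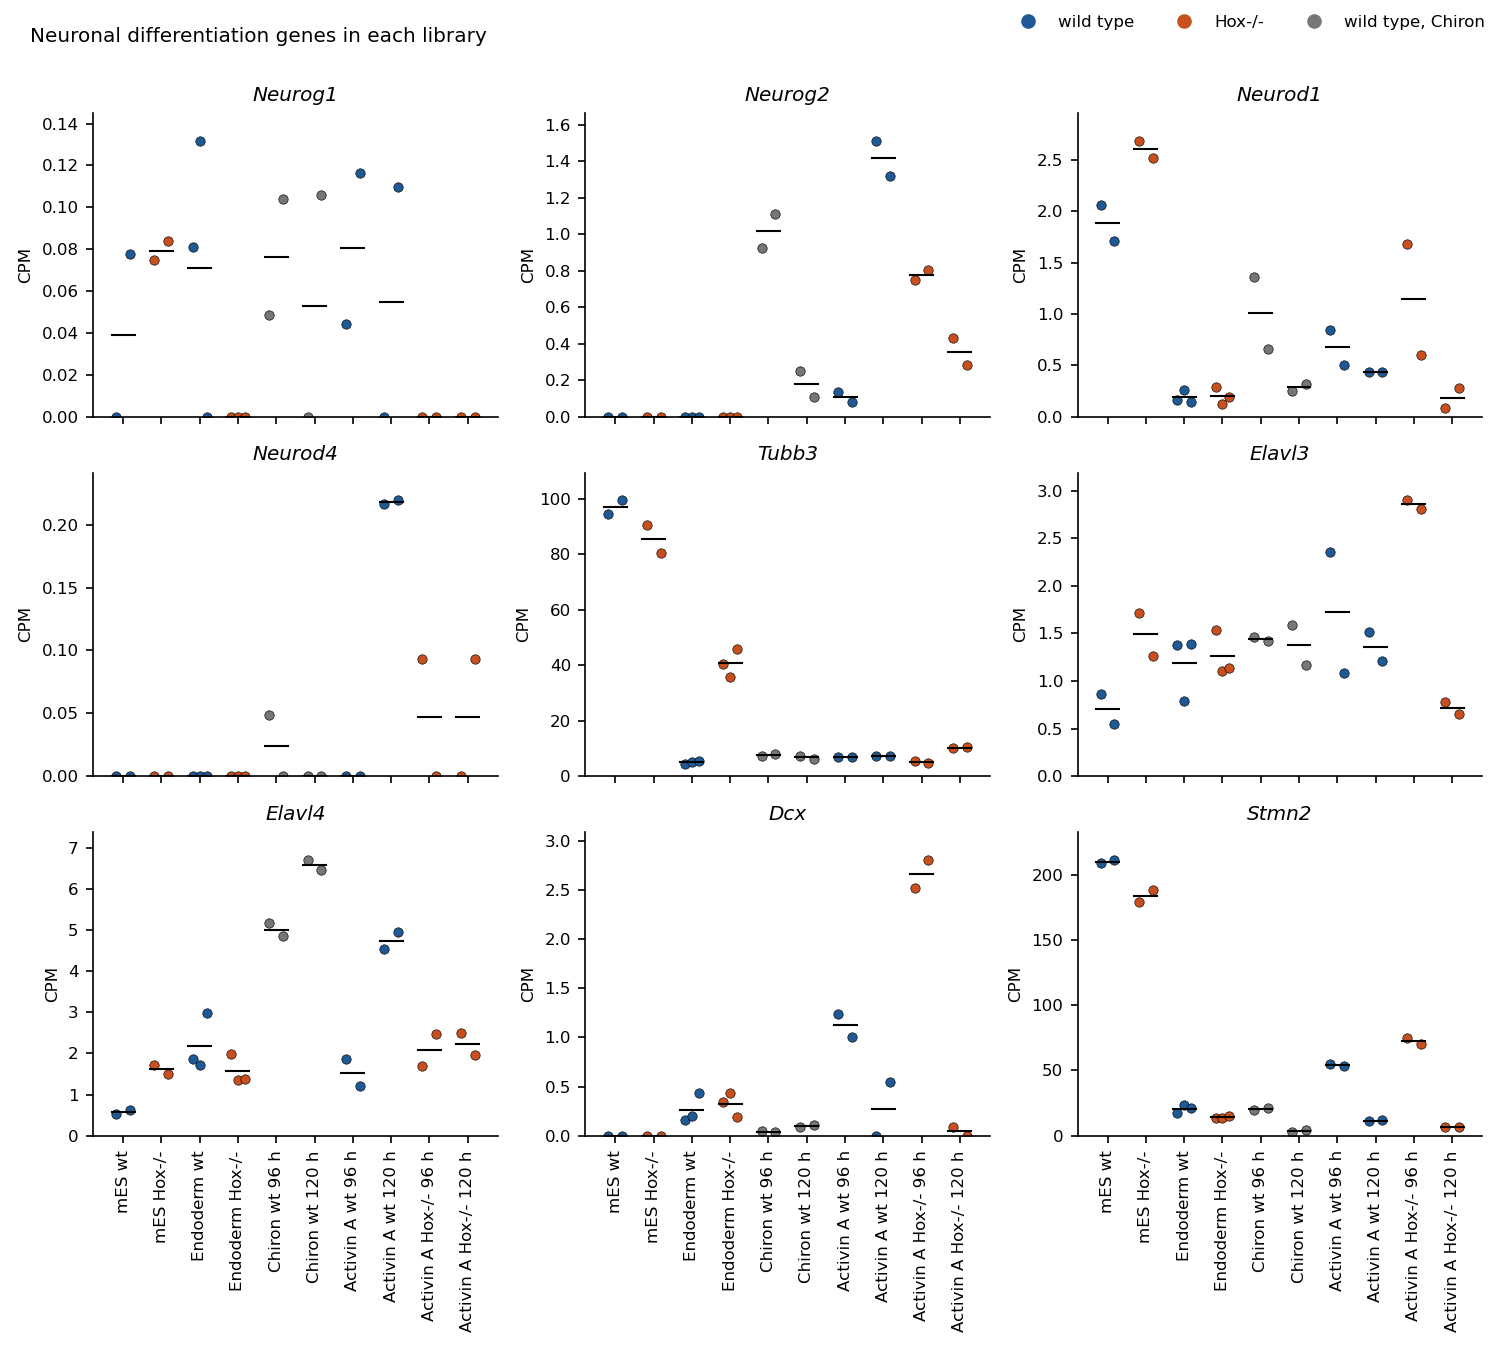
CPM (linear axis from 0, own scale per gene) of the 9 genes in all 22 libraries; each point is a library, each line a group mean. Tubb3 and Stmn2 are highest in mES cells, Hox-/- endoderm cultures stand at 35.8 to 45.8 CPM for Tubb3, and Neurog1 and Neurod4 stay near 0.

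The order of the groups differed from gene to gene. For Tubb3 the levels ran from mES cells through Hox-/- endoderm cultures (mean 40.7 CPM) to Hox-/- Activin A gastruloids at 120 h (10.3 CPM). The ranges of neighbours down to there did not overlap, whereas the remaining 6 groups had means between 5.02 and 7.52 CPM with several overlapping neighbours. For Stmn2 the order after mES cells was Hox-/- and then wild-type Activin A gastruloids at 96 h (72.5 and 54.0 CPM), and wild-type endoderm cultures overlapped with Chiron gastruloids at 96 h (20.7 and 20.2 CPM). Elavl4 was highest in Chiron gastruloids at 120 h (6.59 CPM) and lowest in wild-type mES cells (0.576 CPM). Elavl3 spanned only 0.704 to 2.85 CPM, and 7 of its 9 neighbouring pairs of groups overlapped. Neurod1 was highest in mES cells, at 2.61 CPM in Hox-/- and 1.88 CPM in wild type.

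In mES cells, the comparison of genotypes asks whether the genes already differ before differentiation. Stmn2 stood at 209 and 211 CPM in the wild-type libraries and at 179 and 188 CPM in the Hox-/- libraries. Tubb3 stood at 94.6 and 99.5 CPM in wild type and at 90.5 and 80.5 CPM in Hox-/-. Elavl4 had 8 and 8 counts (0.531 and 0.622 CPM) in wild type and 23 and 18 counts (1.72 and 1.51 CPM) in Hox-/-. The genotypes did not overlap for these 3 genes, and libraries did not overlap for 59.9% of all genes tested. Stmn2 fell by 0.20 on the log2 scale (SE 0.0481, edgeR adjusted p = 0.0025), Tubb3 fell by 0.18 (SE 0.0611, edgeR adjusted p = 0.0273), and Elavl4 rose by 1.48 (SE 0.417, edgeR adjusted p = 0.00767). Elavl3, with 13 and 7 against 23 and 15 counts, and Neurod1, with 31 and 22 against 36 and 30 counts, did not pass the test (edgeR adjusted p = 0.0560 and 0.253). In all, 3 of the 5 tested genes were called at an adjusted p under 0.05, where 23.2% of the 13631 genes tested were called. Without either wild-type library 0 of the 5 were called, DESeq2 called 1 and limma on FPKM called 0. Without the first Hox-/- library Elavl4 lost its call (edgeR adjusted p = 0.0705), and without the second Tubb3 did (edgeR adjusted p = 0.232).

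Among the wider lists in mES cells, the brakes on neurogenesis had calls in both directions. This list holds Notch receptors, their Hes and Hey targets, the Id inhibitors and repressors of neuronal genes. Of its 12 tested genes 1 rose, 3 fell and 8 were not called, where 12.4% of all genes rose and 10.8% fell. Id3 fell from 11.6 ± 0.944 to 4.97 ± 0.693 CPM (SD, n = 2 each; log2 fold change -1.23, SE 0.158, edgeR adjusted p = 1.94e-07). In the neuronal cytoskeleton list 4 rose, 5 fell and 7 were not called of 16, with a median log2 fold change of -0.22 beside 0.001 over all genes. The neurofilament genes Nefm (log2 fold change -0.95) and Nefl (-0.64) fell, and Tubb2a rose (0.47). Of 5 tested neural progenitor genes Sox21 (0.76) and Nes (0.34) rose and 3 were not called.

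In the endoderm cultures, Tubb3 was the gene of the 9 with the largest genotype difference. The 3 wild-type libraries held 54, 78 and 76 counts (4.38, 5.14 and 5.54 CPM) and the 3 Hox-/- libraries 714, 582 and 727 counts (40.6, 35.8 and 45.8 CPM). All Hox-/- libraries were above all wild-type ones, a separation seen in either direction for 54.7% of all genes tested. The rise was 3.02 on the log2 scale (SE 0.121, edgeR adjusted p = 1.37e-10), or 8.11-fold, and Tubb3 ranked 56th by p among 14975 genes tested and 15th by log2 fold change among those higher. Stmn2 went the other way: 17.2, 23.7 and 21.3 CPM in wild type and 13.8, 13.7 and 15.2 CPM in Hox-/-. The libraries again did not overlap, and Stmn2 fell by 0.54 (SE 0.111, edgeR adjusted p = 0.00113).

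The remaining genes showed no called difference between the endoderm genotypes. Elavl3 had 17, 12 and 19 counts in wild type and 27, 18 and 18 in Hox-/- (log2 fold change 0.12, SE 0.304, edgeR adjusted p = 0.777). Elavl4 had 23, 26 and 41 counts in wild type and 35, 22 and 22 in Hox-/- (log2 fold change -0.46, SE 0.279, edgeR adjusted p = 0.198). Both genes overlapped between the genotypes, and counts this low limit the precision. Neurod1 (2 to 5 counts per library) and Dcx (2 to 7 counts) were below the filter. Thus 1 of 4 tested genes rose and 1 fell, where 23.1% of all 14975 genes rose and 23.1% fell (46.2% in all).

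Since Tubb3 was also abundant in mES cells of both genotypes, the drop on differentiation was compared directly, with mES and endoderm libraries in one fit. From mES cells to endoderm cultures Tubb3 fell by 4.38 in wild type (SE 0.111, edgeR adjusted p = 4.66e-18) and by 1.15 in Hox-/- (SE 0.0829, edgeR adjusted p = 7.86e-11). The difference between these drops was 3.23 (SE 0.147, edgeR adjusted p = 1.00e-11), ranking 7th by p of 16251 genes. By size it ranked 131st among the positive differences. Stmn2 fell in both, by 3.45 in wild type and by 3.77 in Hox-/- (SE 0.0783 and 0.0811). Their difference of -0.32 did not pass (edgeR adjusted p = 0.0550), but did under 6 of the alternatives, including without the first wild-type endoderm library (-0.44, edgeR adjusted p = 0.00341) and without the third Hox-/- endoderm library (-0.38, edgeR adjusted p = 0.0424). Elavl4 rose by 1.80 in wild type (SE 0.386, edgeR adjusted p = 2.56e-04) and had a log2 fold change of -0.11 in Hox-/- (edgeR adjusted p = 0.752). That difference was called (-1.91, SE 0.515, edgeR adjusted p = 0.00960), and was not without the first wild-type mES library (edgeR adjusted p = 0.0551).

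Neurod1 fell in both genotypes, by 3.35 and by 3.72. Dcx went from 0 counts in mES cells to 11 counts summed over the wild-type and 16 over the Hox-/- endoderm cultures. With the mES group set to the floor of 3 counts, the ratio of summed counts was 2.49 in wild type and 2.71 in Hox-/-. These ratios have no interval and leave out the counting error of the 11 and 16 counts. On differentiation 1 of 5 tested genes rose and 3 fell in wild type, where 41.6% of all genes rose and 38.3% fell (79.9% in all). In Hox-/- 3 of 5 fell and 2 were not called, where 37.9% of all genes fell and 42.7% rose (80.6% in all). The difference between genotypes was called for 2 of 5 genes (24.1% of all genes).

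**Figure D2:**
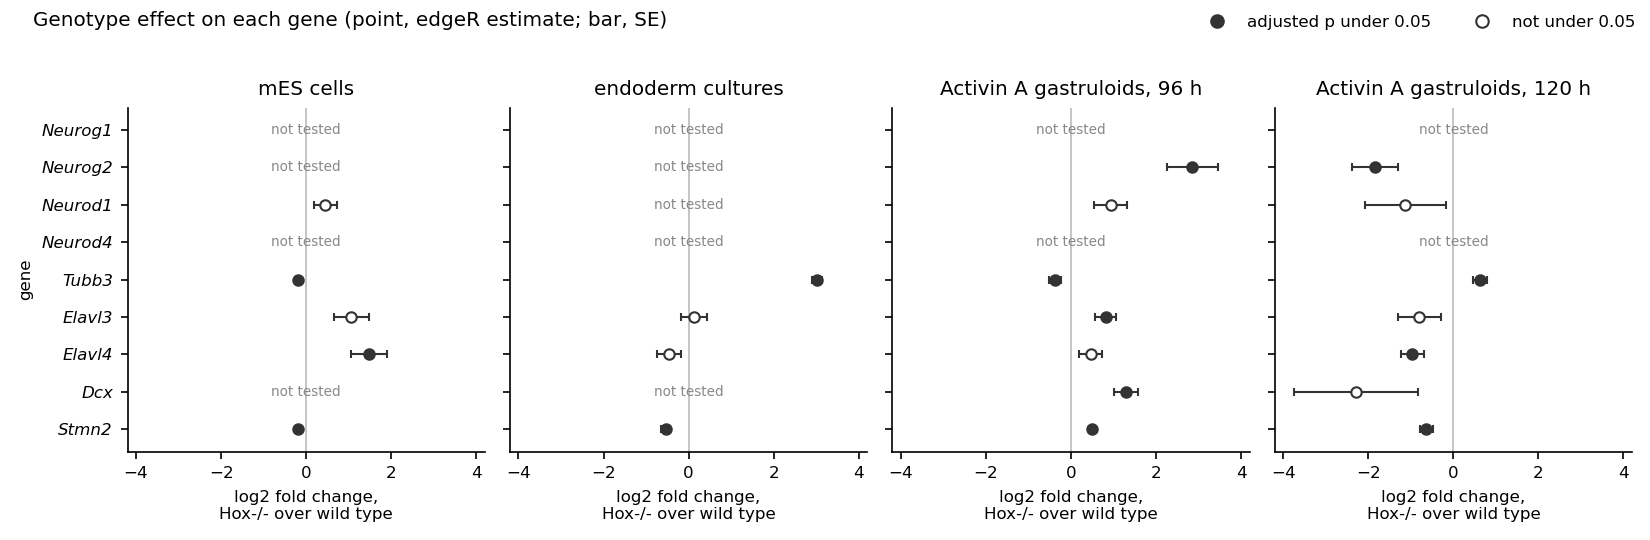
Log2 fold change of Hox-/- over wild type (x axis) for each of the 9 genes (y axis) in mES cells, endoderm cultures and Activin A gastruloids at 96 and 120 h; points are edgeR estimates, bars their SE, filled points have an adjusted p under 0.05. Tubb3 stands apart in endoderm cultures (3.02), and Neurog2 lies above 0 at 96 h (2.86) and below it at 120 h (-1.85).

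Related genes were then examined in the same endoderm comparison, in families chosen after the values had been seen. Of 7 tested beta-tubulin genes 4 rose, Tubb3 itself among them, and 3 were not called, where 23.1% of all genes rose. Tubb2a rose from 6.89 ± 1.47 to 23.1 ± 0.863 CPM (SD, n = 3 each; log2 fold change 1.74, SE 0.119), Tubb2b by 0.75 and Tubb6 by 0.59. Tubb5, the most abundant of them at 2745 ± 76.7 CPM in wild type against 2936 ± 108 CPM in Hox-/-, was not called (log2 fold change 0.11, edgeR adjusted p = 0.115). Among stathmins, Stmn1 (0.56) and Stmn4 (0.87) rose while Stmn2 fell. Among the 4 Elavl genes only the widely expressed Elavl1 was called (0.25).

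**Figure D3:**
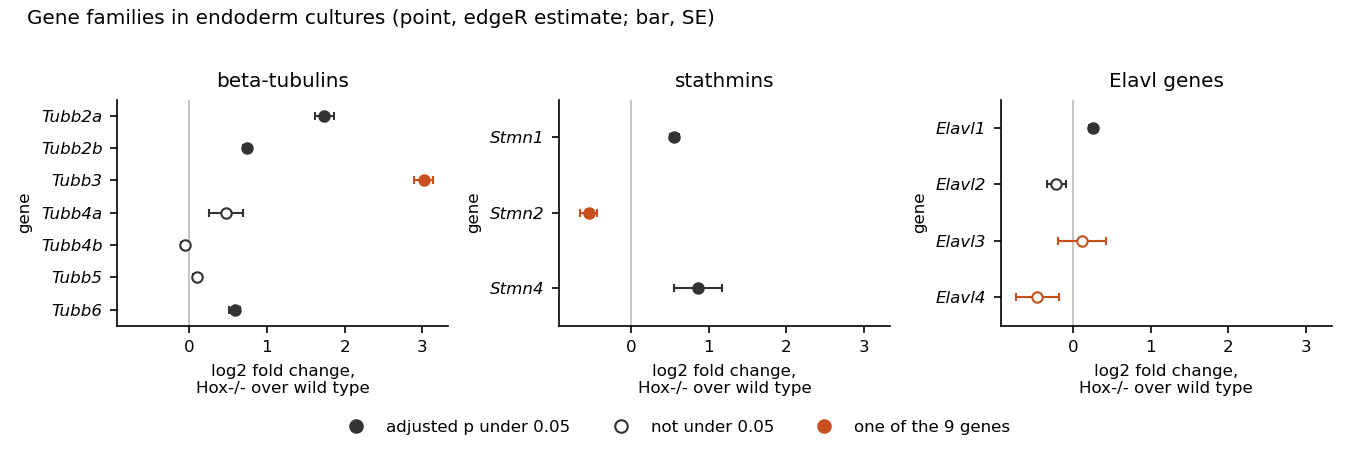
Log2 fold change of Hox-/- over wild type in endoderm cultures (x axis) for tested beta-tubulin, stathmin and Elavl genes (y axis); points are edgeR estimates, bars their SE, filled points have an adjusted p under 0.05, and the genes among the 9 are in orange. Tubb3 (3.02) and Tubb2a (1.74) have the highest values in the tubulin panel, and Stmn2 lies below 0.

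None of the genes next to Tubb3 rose by as much. Of 7 tested neighbours within 100 kb, only Gas8 rose (log2 fold change 0.24) and Spire2 (-1.03) and Dbndd1 (-0.62) fell. The flanking genes Tcf25, at chr8:123373753-123403835, and Def8, at chr8:123423527-123463270, had log2 fold changes of -0.003 and -0.04 (edgeR adjusted p = 0.967 and 0.603).

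The neuronal cytoskeleton list, which holds microtubule, neurofilament and growth-cone genes but none of the 9, had 9 genes higher, 3 lower and 4 not called of 16 in Hox-/- endoderm cultures, with a median of 0.65 beside 0.002 over all genes. Over all genes 23.1% were called higher and 23.1% lower in these cultures. Crmp1 rose from 5.32 ± 0.309 to 17.1 ± 0.872 CPM (SD, n = 3 each; log2 fold change 1.69), and Dclk1, a doublecortin relative, by 1.68. Mapt, encoding tau, fell by 1.34. Among 5 tested neurogenic transcription factors Hes6 (0.58) and Ebf2 (0.54) rose and 3 fell, among them Bhlhe22 (-2.40) and Ebf3 (-1.55). Of 7 genes of neuronal subtype and transmission Gad1 rose (0.60), Syt1 (-0.92) and Syp (-0.70), encoding synaptic vesicle proteins, fell, and 4 were not called. Of 8 Notch ligands and modifiers 1 rose and 4 fell, including Dll3 (-0.96) and Dll1 (-0.90). Of 13 brakes on neurogenesis 2 rose and 11 were not called. Of 11 neural progenitor genes 5 rose and 3 fell. Of 3 tested endocrine genes Rfx6 (-2.17) and Pcsk1 (-1.25) fell.

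Several marker levels differed with genotype in the same cultures. The 5 mES markers summed to 488 to 556 CPM in wild type and 159 to 177 CPM in Hox-/-. The 6 endoderm markers summed to 205 to 216 against 81.7 to 87.8 CPM, with none at 0 in either. The 4 neural progenitor markers (Sox1, Sox2, Pax6, Irx3) summed to 53.3 to 68.7 against 22.3 to 25.3 CPM, with Sox1 at the floor in wild type and Pax6 in Hox-/-. Sox2 made up most of both sums, with means of 57.9 and 19.9 CPM, and fell by 1.53. It was also high in wild-type mES cells (321.5 CPM). Irx3 had means of 4.80 and 3.65 CPM. The 4 neural crest markers were at 8.61 to 9.43 and 8.76 to 11.6 CPM, with ranges that overlapped. The caudal and mesoderm markers (T, Cdx2, Tbx6, Meox1, Tcf15) summed to 298 to 319 against 448 to 479 CPM. Within this sum the means of T (174 to 236 CPM) and Cdx2 (98.8 to 207 CPM) were higher in Hox-/-, while Tbx6 (15.7 to 7.17 CPM) and Meox1 (18.1 to 4.82 CPM) were lower. The trophoblast markers (Cdx2, Elf5, Gcm1, Tfap2c) summed to 135 to 152 against 217 to 242 CPM, a higher sum that Cdx2 alone made, as Tfap2c went from 43.3 to 22.1 CPM and Gcm1 from 0.217 to 0.103 CPM, with Elf5 at the floor in both. The germ cell markers (Dazl, Ddx4, Dppa3) summed to 21.0 to 25.8 against 10.5 to 10.6 CPM. The endocrine markers (Chga, Chgb, Pax4, Nkx2-2) summed to 1.25 to 2.11 against 1.13 to 1.31 CPM, with Pax4 at 0 in both. The part of these cell types in the Tubb3 and Stmn2 differences was not tested.

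In Activin A gastruloids at 96 h, Neurog2, Dcx, Elavl3 and Stmn2 were higher in Hox-/- and Tubb3 was lower. Neurog2 had 3 and 2 counts in wild type (0.133 and 0.0775 CPM) and 16 and 12 counts in Hox-/- (0.748 and 0.802 CPM). The summed counts gave a ratio of 7.45 (95% counting interval 2.84 to 24.7), and Neurog2 rose by 2.86 in the fit (SE 0.596, edgeR adjusted p = 7.11e-05). Dcx stood at 1.24 and 1.01 CPM in wild type and at 2.52 and 2.81 CPM in Hox-/-, a rise of 1.29 (SE 0.282, edgeR adjusted p = 2.01e-04), which DESeq2 did not call (adjusted p = 0.108). Stmn2 stood at 54.9 and 53.1 CPM in wild type and at 74.6 and 70.5 CPM in Hox-/-, a rise of 0.48 (SE 0.0508, edgeR adjusted p = 3.24e-11). None of the 3 overlapped between genotypes, as for 67.7% of all genes tested.

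Elavl3 had 2.35 and 1.08 CPM in wild type against 2.90 and 2.81 CPM in Hox-/- at 96 h. It rose by 0.81 (SE 0.255, edgeR adjusted p = 0.00865), but without the second, lower wild-type library the log2 fold change was 0.33 (edgeR adjusted p = 0.394), and without the first Hox-/- library the call was lost as well (edgeR adjusted p = 0.0537). It was also lost under DESeq2 (adjusted p = 0.278) and under limma on log2(FPKM + 1) (adjusted p = 0.351). Tubb3 went against these genes, with 6.93 and 7.05 CPM in wild type against 5.52 and 4.68 CPM in Hox-/- (log2 fold change -0.39, SE 0.141, edgeR adjusted p = 0.0252), and lost its call without the first wild-type library (edgeR adjusted p = 0.0602), the second wild-type library (edgeR adjusted p = 0.0934) or the second Hox-/- library (edgeR adjusted p = 0.170), and under DESeq2 (adjusted p = 0.252). Neurod1 had 19 and 13 counts against 36 and 9, which overlapped (log2 fold change 0.93, edgeR adjusted p = 0.0502, and 0.0491 with RLE scaling factors). It was called without the second Hox-/- library (1.39, edgeR adjusted p = 0.00505) or the first wild-type library (1.32, edgeR adjusted p = 0.0434). Elavl4 also overlapped, at 1.87 and 1.2 against 1.68 and 2.47 CPM (log2 fold change 0.46, edgeR adjusted p = 0.166). Of the 7 tested genes 4 rose and 1 fell, where 22.2% of all genes were called higher and 16.7% lower (38.9% in all). With DESeq2, 3195 of 30498 genes were called. That total takes in every gene with any count, so its share is not on the same base as the 7. DESeq2 called 2 of the 7, and edgeR called 3 without the second wild-type library.

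At 120 h Neurog2, Elavl4 and Stmn2 were lower in Hox-/-, and Tubb3 was higher. Neurog2 had 14 and 12 counts in wild type (1.51 and 1.32 CPM) and 5 and 3 counts in Hox-/- (0.431 and 0.281 CPM), a log2 fold change of -1.85 (SE 0.550, edgeR adjusted p = 0.0037). Elavl4 stood at 4.54 and 4.94 CPM against 2.50 and 1.96 CPM (log2 fold change -0.97, SE 0.278, edgeR adjusted p = 0.00292). Stmn2 stood at 11.5 and 11.9 CPM against 6.98 and 6.92 CPM (log2 fold change -0.63, SE 0.147, edgeR adjusted p = 2.83e-04). Tubb3 rose, from 7.24 and 7.25 CPM to 10.2 and 10.5 CPM (log2 fold change 0.62, SE 0.163, edgeR adjusted p = 0.00115). None of the 4 overlapped between genotypes, as for 73.2% of all genes tested. The calls of Neurog2 and Elavl4 were lost under DESeq2 (adjusted p = 0.0822 and 0.0675) and without the second Hox-/- library (edgeR adjusted p = 0.0568 and 0.0517).

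Elavl3 (14 and 11 against 9 and 7 counts), Neurod1 (4 and 4 against 1 and 3) and Dcx (0 and 5 against 1 and 0) did not pass at 120 h (edgeR adjusted p = 0.183, 0.324 and 0.156). For Dcx the summed counts of 5 and 1 gave a ratio of Hox-/- to wild type of 0.165 with a counting interval of 0.00348 to 1.47, so a difference was not detectable at this depth. Without the first wild-type library, which has 0 counts, Dcx was called (edgeR adjusted p = 0.0308), and without the second the log2 fold change was 2.82. Thus 1 of 7 rose and 3 fell, where 24.9% of all genes were called higher and 25.5% lower (50.4% in all).

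The change in the genotype effect between 96 h and 120 h was tested as an interaction. It was called for 6 of 7 genes, where 38.9% of all genes were called. The effect moved down for Neurog2 (-4.70, SE 0.814, edgeR adjusted p = 3.49e-06), Stmn2 (-1.12, SE 0.156, edgeR adjusted p = 6.52e-08), Elavl4 (-1.43, SE 0.386, edgeR adjusted p = 0.00233) and Elavl3 (-1.62, SE 0.565, edgeR adjusted p = 0.0183). It moved up for Tubb3 (1.01, SE 0.215, edgeR adjusted p = 1.53e-04). For Dcx it was -3.59 (SE 1.44, edgeR adjusted p = 0.032) but 1.53 without the second wild-type library at 120 h, which holds all 5 wild-type counts of that time, and it was not called without the second Hox-/- library at 120 h (edgeR adjusted p = 0.158). The Elavl3 call was lost without the second wild-type library at 96 h (edgeR adjusted p = 0.1002), the first wild-type library at 120 h (edgeR adjusted p = 0.107) or either Hox-/- library at 120 h (edgeR adjusted p = 0.0501 and 0.0834). For Neurod1 the difference was -2.06 (edgeR adjusted p = 0.0992), and it was called without the second Hox-/- library at 96 h (edgeR adjusted p = 0.0376). Over all 30498 genes with any count, a wider base than the 7 tested here, DESeq2 called 4128. Under DESeq2 3 of the 7 were called. Calls were lost there for Elavl4 (adjusted p = 0.0541), Elavl3 (adjusted p = 0.133) and Dcx (adjusted p = 0.102), and Elavl4 was not called by limma on FPKM either (adjusted p = 0.110 with 1 added and 0.148 with 0.1 added).

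**Figure D4:**
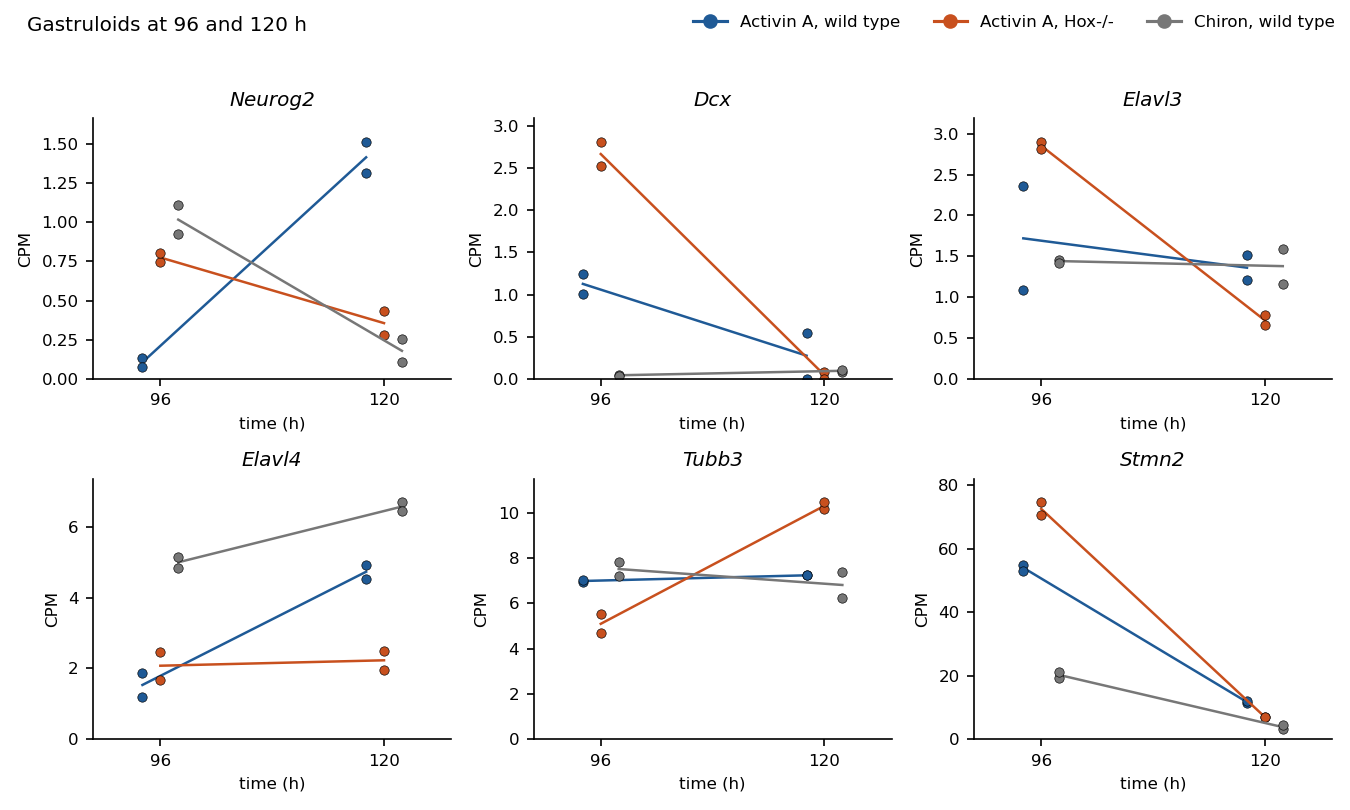
CPM (linear axis from 0) of 6 genes in gastruloids at 96 and 120 h; points are libraries (2 per group) and lines join group means. Wild-type Activin A gastruloids gain Neurog2 from 96 to 120 h, to 1.51 and 1.32 CPM, while Chiron gastruloids and Hox-/- Activin A gastruloids end at 0.106 to 0.431 CPM.

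Over time, Stmn2 and Dcx fell in Activin A gastruloids of both genotypes. Stmn2 fell by 2.28 in wild type (SE 0.0874, edgeR adjusted p = 2.97e-28) and by 3.40 in Hox-/- (SE 0.0903, edgeR adjusted p = 3.01e-35). Dcx fell by 2.08 in wild type (SE 0.609, edgeR adjusted p = 0.00183; 0.122 without the first library at 120 h) and from 96 counts to 1 in Hox-/-, a ratio of 58.9 with a counting interval of 10.3 to 2350. Neurog2 rose in wild type by 3.6 (SE 0.593, edgeR adjusted p = 3.08e-07; ratio of summed counts 13.7, counting interval 5.17 to 45.6), and had a log2 fold change of -1.10 in Hox-/- (edgeR adjusted p = 0.0682). Elavl4 rose by 1.57 in wild type, and was at 1.68 to 2.50 CPM in all 4 Hox-/- libraries (edgeR adjusted p = 0.687). Tubb3 rose by 0.98 in Hox-/- (SE 0.151, edgeR adjusted p = 1.22e-07) and was between 6.93 and 7.25 CPM in all 4 wild-type libraries (edgeR adjusted p = 0.891). In Hox-/-, Elavl3 fell by 2.00 and Neurod1 fell by 2.74 (edgeR adjusted p = 6.81e-06 and 2.06e-04), whereas in wild type neither passed (edgeR adjusted p = 0.345 and 0.315). Elavl3 did pass in wild type without the second library at 96 h (edgeR adjusted p = 0.0312). In wild type 2 of 7 tested genes rose and 2 fell, where 37.2% of all genes rose and 37.8% fell (74.9% in all). In Hox-/- 1 of 7 rose and 4 fell, where 34.9% of all genes rose and 37.6% fell (72.4% in all). CPM of the libraries at the 2 times did not overlap for 87.3% of all genes in wild type and 85.3% in Hox-/-.

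Genes of the wider lists also differed with genotype in these gastruloids, beside the shares of all genes given above for each time. At 96 h, 3 of 9 tested neurogenic transcription factors rose and 6 were not called. Ebf1 rose from 2.60 ± 0.222 to 5.88 ± 0.771 CPM (SD, n = 2 each; log2 fold change 1.21, SE 0.168, edgeR adjusted p = 4.99e-08), and Hes6 rose by 0.36. Among 15 brakes on neurogenesis 5 rose and 5 fell, the Notch targets Hes1 (-0.77) and Hey1 (-0.86) and the receptor Notch2 (-0.44) among the latter. The Notch ligand Dll1 rose by 0.71, and Jag1 fell by 1.33. Whether Dll1 followed Neurog2 was not tested. In the neural progenitor list 6 rose, 3 fell and 4 were not called of 13, with Sox1 rising by 2.28 and Irx3 falling by 1.94. Of 12 genes of neuronal subtype and transmission 1 rose and 4 fell, Mnx1 (-1.5) among the latter. Of 11 neuronal RNA-binding and splicing genes 4 rose and 2 fell, and Ptbp2 rose by 0.41.

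At 120 h the neural progenitor list was mostly lower in Hox-/-: 7 fell, 4 rose and 2 were not called of 13, with a median of -1.23 beside -0.02 over all genes. Pax6 was at 10.6 ± 1.42 CPM in wild type against 0.539 ± 0.0310 CPM in Hox-/- (SD, n = 2 each; log2 fold change -4.16, SE 0.329, edgeR adjusted p = 1.66e-15). Nkx6-1 (-4.33) and Sox21 (-4.51) also fell. Of 9 tested neurogenic transcription factors 2 rose, 2 fell and 5 were not called. Ebf2 (0.976) and Ebf1 (0.635) rose and Ebf3 (-1.80) fell. The motor neuron progenitor factor Olig2 went from 10.1 ± 0.428 to 0.227 ± 0.0765 CPM, the latter at the floor. Several Notch pathway genes rose in the same samples: Dll1 went from 103 ± 2.60 to 586 ± 0.690 CPM (log2 fold change 2.61), Lfng rose by 2.27, Notch1 by 2.10 and Hey1 by 1.5. Of 8 Notch ligands and modifiers 5 rose and 2 fell, Mfng (-1.35) among the latter. Of 15 brakes on neurogenesis 5 rose and 6 fell, Id2 (-2.68) and Id4 (-2.32) among the latter. Of 12 genes of neuronal subtype and transmission 3 rose and 5 fell, Isl1 (-1.73) among the latter. Of 6 tested endocrine genes 4 fell, among them Chga (-0.56) and Rfx6, at 8.33 CPM in wild type and at the floor in Hox-/-.

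Marker levels moved with genotype here too. The 4 neural progenitor markers summed to 44.7 to 47.1 CPM in wild type and 58.2 to 58.7 CPM in Hox-/- at 96 h, and to 99.3 to 101.3 against 35.3 to 35.4 CPM at 120 h, with none at 0. At 96 h Sox2 went from 31.6 to 50.2 CPM and Sox1 from 0.946 to 4.51 CPM, whereas Irx3 went from 12.85 to 3.22 CPM and Pax6 from 0.530 to 0.451 CPM. At 120 h all 4 had lower means in Hox-/-, Sox2 at 43.1 against 16.6 CPM and Irx3 at 33.5 against 13.2 CPM. The 6 endoderm markers summed to 263 to 295 against 26.6 to 29.6 CPM at 96 h and to 300.4 to 309.1 against 143 to 148 CPM at 120 h. At 120 h Cxcr4 made up most of the Hox-/- sum, with means of 119 CPM (wild type) against 115.3 CPM (Hox-/-), whereas Sox17 went from 57.4 to 3.78 CPM, Foxa2 from 63.1 to 1.93 CPM and Foxa1 from 32.8 to 1.78 CPM. Cxcr4 had been at 8.34 CPM in Hox-/- at 96 h. The 5 mES markers summed to 945 to 961 against 856 to 873 CPM at 96 h and to 41.4 to 44.2 against 16.7 to 18.6 CPM at 120 h. The caudal and mesoderm markers summed to 1981 to 2068 against 2465 to 2484 CPM at 96 h and to 730.4 to 757.5 against 810.5 to 817.2 CPM at 120 h. At 96 h T (1730 to 2129 CPM) and Cdx2 (245 to 311 CPM) were higher in Hox-/- and Meox1 (5.63 to 0.952 CPM) and Tbx6 (39.9 to 31.4 CPM) lower, and at 120 h T went from 304 to 165 CPM and Tbx6 from 17.8 to 104 CPM. The trophoblast markers summed to 267 to 272 against 326 to 345 CPM and to 94.4 to 95.2 against 138 to 146 CPM, and apart from Cdx2 their most abundant member, Tfap2c, had means of 24.0 and 23.8 CPM at 96 h and of 4.30 and 3.28 CPM at 120 h. The endocrine markers summed to 4.62 to 4.77 against 5.99 to 6.09 CPM and to 7.03 to 7.69 against 4.31 to 4.49 CPM, with Pax4 at or under the floor throughout. The part of these markers' cell types in the differences of the 9 genes was not tested.

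Activin A and Chiron gastruloids of wild-type cells were compared to ask how the treatment bears on these genes. These comparisons share the wild-type Activin A libraries with the genotype comparisons above. At 96 h Neurog2 was higher under Chiron, with 19 and 32 counts (0.925 and 1.11 CPM) against 3 and 2 under Activin A. The ratio of Chiron to Activin A was 9.98 (counting interval 4.01 to 32.1), and the log2 fold change of Activin A over Chiron -3.29 (SE 0.511, edgeR adjusted p = 4.61e-06). Elavl4 was also higher under Chiron, at 5.16 and 4.86 against 1.87 and 1.2 CPM (log2 fold change -1.78, SE 0.200, edgeR adjusted p = 5.16e-08). Dcx and Stmn2 had the opposite direction. Dcx had 1 and 1 counts under Chiron and 28 and 26 under Activin A, a ratio of 27.6 (counting interval 7.28 to 234; edgeR adjusted p = 3.73e-06), and Stmn2 was at 19.4 and 21.1 against 54.9 and 53.1 CPM (log2 fold change 1.35, SE 0.0740, edgeR adjusted p = 1.20e-13). The 4 genes did not overlap between treatments, as for 80.3% of all genes tested. Of 7 tested genes 2 were higher and 2 lower under Activin A, where 31.3% of all genes were called higher and 30.2% lower (61.6% in all).

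By 120 h the Neurog2 difference had turned round: 3 and 1 counts under Chiron and 14 and 12 under Activin A, a ratio of 7.56 (counting interval 2.62 to 29.8; log2 fold change 2.82, SE 0.625, edgeR adjusted p = 6.77e-04). The treatment effect on Neurog2 thus differed between times by 6.11 (SE 0.809, edgeR adjusted p = 1.33e-06), and that on Elavl4 by 1.25 (SE 0.301, edgeR adjusted p = 0.00181). Limma on FPKM did not call the Elavl4 difference (adjusted p = 0.245 with 1 added and 0.1096 with 0.1 added). Stmn2 stayed higher under Activin A, with 11.5 and 11.9 against 3.19 and 4.35 CPM (log2 fold change 1.60, SE 0.174, edgeR adjusted p = 7.71e-08), and its effect was not called as different between times (0.25, edgeR adjusted p = 0.324). Elavl4 was at 6.71 and 6.47 under Chiron and at 4.54 and 4.94 CPM under Activin A (log2 fold change -0.53, edgeR adjusted p = 0.0503). With RLE scaling factors it was called (edgeR adjusted p = 0.0486). Tubb3 was at 6.26 to 7.84 CPM in all 8 wild-type gastruloid libraries and was not called at either time (edgeR adjusted p = 0.243 and 0.930). At 120 h 2 of 7 genes were called, both higher, where 20.3% of all genes were called higher (41.9% in all), and for the interaction 2 of 7 (39.6%).

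Within Chiron gastruloids, 3 of 7 genes fell from 96 h to 120 h, where 33.2% of all genes fell and 61.7% were called in all. Stmn2 fell by 2.56 (SE 0.138, edgeR adjusted p = 1.39e-13) and Neurog2 by 2.52 (SE 0.583, edgeR adjusted p = 5.57e-04). Neurod1 went from 28 and 19 counts to 3 and 3, a ratio of 0.295 (counting interval 0.103 to 0.691; edgeR adjusted p = 0.00918), a call that was lost under DESeq2 (adjusted p = 0.0764) and without the first library at 96 h or at 120 h (edgeR adjusted p = 0.104 and 0.0982).

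Notch pathway genes also differed between the treatments. At 96 h Dll1 was at 830 ± 88.6 CPM under Chiron and 45.1 ± 1.57 CPM under Activin A (SD, n = 2 each; log2 fold change -4.27, SE 0.0659, edgeR adjusted p = 6.86e-24), and Hes5, a target of Notch, at 24.4 ± 1.03 against 0.386 ± 0.271 CPM (log2 fold change -6.07). Over all genes 31.3% were called higher and 30.2% lower at 96 h, and 20.3% and 21.6% at 120 h. Of 15 brakes on neurogenesis Activin A gastruloids had 7 at a lower and 2 at a higher level at 96 h, against 4 and 8 at 120 h. Of 13 genes of neuronal subtype and transmission 7 had a higher level and 4 a lower one under Activin A at 96 h, while 8 were higher and 5 not called at 120 h. At 120 h Isl1 was at 29.8 ± 2.91 against 0.790 ± 0.0679 CPM (log2 fold change 5.16). The 4 neural progenitor markers summed to 54.9 to 62.2 CPM under Chiron and 44.7 to 47.1 CPM under Activin A at 96 h, and to 97.98 to 102.0 against 99.3 to 101.3 CPM at 120 h. At 96 h Sox2 (47.4 to 31.6 CPM), Sox1 and Pax6 had lower means under Activin A, and Irx3 a higher one (6.91 to 12.85 CPM). The 5 mES markers summed to 137 to 179 CPM under Chiron against 945 to 961 CPM under Activin A at 96 h, with Pou5f1 at means of 103.3 and 824 CPM, and to 118 to 128 against 41.4 to 44.2 CPM at 120 h. At 96 h Nanog was also higher under Activin A (21.8 to 108 CPM). Zfp42 (9.03 to 4.455 CPM) and Esrrb (16.7 to 8.66 CPM) were lower there, and Klf4 was at 7.20 and 7.17 CPM. The 6 endoderm markers summed to 107 to 115 against 263 to 295 CPM at 96 h and to 42.2 to 44.9 against 300.4 to 309.1 CPM at 120 h. Cxcr4 was 101.0 of the Chiron sum at 96 h, and Sox17 and Foxa2 went from 1.43 and 1.59 CPM under Chiron to 61.0 and 80.8 CPM under Activin A. The caudal and mesoderm markers summed to 1367 to 1402 against 1981 to 2068 CPM at 96 h and to 1026 to 1035 against 730.4 to 757.5 CPM at 120 h. Of these only T had higher means under Activin A, at 96 h (531 to 1730 CPM) and at 120 h (142 to 304 CPM). Cdx2, Tbx6, Meox1 and Tcf15 had lower means under Activin A at both times. At 96 h Cdx2 went from 393 to 245 CPM and Tbx6 from 382 to 39.9 CPM. The part of these cell types in the differences of the 9 genes between treatments was not tested.

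Genes whose levels followed those of the 9 across the 22 libraries were listed by Pearson r of log2(CPM + 0.5), as a description over libraries that fall into 10 groups. Among 14608 genes compared, the highest r with the mean standardised pattern of the 9 was 0.841 for Fbxo44, followed by Aldh3a2 (0.824), Tmem179 (0.808), Abr (0.806) and Arhgef19 (0.800). Each of the 9 had equal weight in this mean, also Neurog1 and Neurod4 with their few counts. For single genes, Tubb3 was most like Tubb2a (r = 0.933), Stmn2 most like Glud1 (0.974), Dcx most like Slc5a7, the choline transporter (0.944), Neurod1 most like Cpne5 (0.914), Elavl4 most like Chst10 (0.912), Neurog2 most like Csn3 (0.909) and Elavl3 most like Rps12-ps9 (0.822). Neurod4 (Tcf21, 0.907) and Neurog1 (Ccdc116, 0.661) rest on a few counts. The 9 genes did not follow a common pattern. Neurod1 and Stmn2 had r = 0.831 and Elavl3 and Dcx r = 0.683, while Elavl4 and Stmn2 had r = -0.695 and Tubb3 and Elavl4 r = -0.61.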

How the data were processed

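Per the labels' protocols, libraries were made from poly(A) RNA and kept strand. Reads were processed with cutadapt 1.16, STAR 2.7.7a and Cufflinks 2.2.1 on mm10, per the submitters' processing notes; the counting tool and its strand setting are not given in the sources used here. The authors deposited 4 tables of raw counts per gene and tables of FPKM. CPM were computed here from the deposited counts and each library's total. The 4 wild-type Activin A libraries are in 2 tables with identical counts. Comparisons used edgeR 4.0.16 (R 4.3.3) quasi-likelihood tests after filterByExpr and TMM scaling, with Benjamini-Hochberg adjustment over all genes tested and calls at an adjusted p under 0.05. SEs are the unshrunken log2 fold change divided by the square root of the F statistic. Alternatives were RLE factors, no filter, DESeq2 1.42.0, a replicate block, leaving out each library, and limma 3.58.1 on log2(FPKM + 1) without a filter and, for genes reaching an FPKM of 1, on log2(FPKM + 0.1). Scaling by total counts alone was added after seeing the data. Limma on FPKM was not used where mES and endoderm libraries share a fit. Count ratios have exact 95% intervals that cover counting error only, apart from those where a group had 0 counts, which have no interval.

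The 9 genes and the wider lists were chosen with earlier results of these data known. The lists cover neurogenic transcription factors, brakes on neurogenesis, Notch ligands and modifiers, neuronal cytoskeleton, RNA-binding and splicing, neuronal subtype and transmission, neural progenitors and endocrine cells. From each list up to 4 called genes were named per genotype or treatment comparison: those with the largest fold change, no overlap between groups and at least 1 CPM in a group. The tubulin, stathmin and Elavl families were chosen after the values had been seen. Single values of some listed genes are not reported here.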

Additional observations from a re-analysis of the deposited data

Results flagged for a closer look

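In 10 cases the effect on a gene differed between times or cultures by an interaction test (edgeR quasi-likelihood, adjusted over all genes). The Hox-/- effect in Activin A gastruloids changed from 96 h to 120 h by -4.70 for Neurog2 (adjusted p = 3.49e-06), 1.01 for Tubb3 (adjusted p = 1.53e-04), -1.62 for Elavl3 (adjusted p = 0.0183), -1.43 for Elavl4 (adjusted p = 0.00233), -3.59 for Dcx (adjusted p = 0.032) and -1.12 for Stmn2 (adjusted p = 6.52e-08), all on the log2 scale. The Dcx value was 1.53 without the second wild-type library at 120 h. The effect of Activin A over Chiron changed from 96 h to 120 h by 6.11 for Neurog2 (adjusted p = 1.33e-06) and 1.25 for Elavl4 (adjusted p = 0.00181). The Hox-/- effect differed between endoderm cultures and mES cells by 3.23 for Tubb3 (adjusted p = 1.00e-11) and -1.91 for Elavl4 (adjusted p = 0.00960). No group holds 4 or more libraries, so no search for single outlying libraries was possible.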

How the results depend on the processing

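Of 49 called results for single genes, 33 kept their call under every alternative run, 34 under those that keep all libraries and 37 when libraries were left out in turn. Of 984 alternative values 896 kept direction and side of the threshold, 50 lost a call, 17 gained one and 21 reversed; the causes were not tested. Among called results, Dcx in the genotype by time comparison reversed, to 1.53 without the second wild-type library at 120 h (range -6.39 to 1.53). A result that an alternative could not test was not counted as lost there. Of the 49, DESeq2 kept 38 and lost 10, and limma on log2(FPKM + 1) kept 28 and lost 12. Limma on log2(FPKM + 0.1) kept 17 and lost 4, and the rest had no value.

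The number of the 9 genes called under DESeq2 was 1 in mES cells, 2 in Activin A gastruloids between genotypes at 96 h, 2 at 120 h and 3 for genotype by time. With limma on log2(FPKM + 1) it was 0 in mES cells, 3 between genotypes at 96 h, 3 for genotype by time and 1 for treatment by time, where Elavl4 lost its call. With limma on log2(FPKM + 0.1), where 3 genes or fewer had an FPKM of at least 1, it was 0 in mES cells, 2 between genotypes at 96 h, 2 for treatment at 96 h, 1 for treatment at 120 h, 2 over time in wild type, 2 in Hox-/-, 1 in Chiron gastruloids, 2 for genotype by time and 0 for treatment by time. Over all genes the main fit called 3168 of 13631 in mES cells. Of 16831 it called 6546 between genotypes at 96 h, 8490 at 120 h and 6544 for genotype by time. DESeq2 called 954 of 25235 in mES cells and, of 30498, 3195, 6408 and 4128. These DESeq2 totals take in every gene with any count, whereas the 9 were counted only where DESeq2 gave an adjusted p. Limma on log2(FPKM + 1) called 23 of 23212 in mES cells and, of 27907, 2665 at 96 h and 4193 for genotype by time. Leaving out libraries gave 0 to 2 genes in mES cells, 3 to 5 between genotypes at 96 h, 2 to 5 at 120 h and 1 to 3 for genotype by culture.

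Uncalled values reversed with limma on log2(FPKM + 1) for Elavl3 in endoderm (-0.18), Elavl4 between genotypes at 96 h (-0.017, and -0.051 with 0.1 added), Elavl3 for treatment at 120 h (0.031) and Stmn2 for treatment by time (-0.08), and with total counts alone for Tubb3 over time in wild type (0.051). That scaling moved the median over all genes from -0.02 to -0.132 between genotypes at 120 h and from 0.067 to 0.185 for wild-type differentiation. Leaving out libraries gave ranges that cross 0 for Elavl3 in endoderm (-0.127 to 0.256), treatment at 96 h (-0.431 to 0.678) and 120 h (-0.288 to 0.179), wild-type time (-0.867 to 0.246), Chiron time (-0.427 to 0.04) and treatment by time (-0.753 to 0.356), for Dcx at 120 h between genotypes (-5.10 to 2.82) and treatments (-3.83 to 2.42), for Tubb3 between treatments at 120 h (-0.09 to 0.168) and for Elavl4 over time in Hox-/- (-0.16 to 0.39).

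Same-numbered libraries did not deviate together (correlations of -0.0701 to 0.106), so numbers were not taken to pair them, and 2 of 6 endoderm libraries correlated best with their own number. With the replicate block the genes called numbered 4 in mES cells, where Elavl3 was added (adjusted p = 0.0488), and 3 for genotype by culture, where Stmn2 was added (adjusted p = 0.0426), and no other count changed. RLE factors lost no call and added 3: Elavl4 for treatment at 120 h, Neurod1 between genotypes at 96 h and Stmn2 for genotype by culture. Depth limits Neurog1, Neurod4, Neurog2 and Dcx, which rest on few or no counts in most groups.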
